A study of Rattus norvegicus with 84 samples.

Results

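Voltage-gated and potassium channel genes encode the proteins that carry sodium, calcium and potassium across the plasma membrane of excitable cells, together with the subunits that steer them. They were taken from the table of mRNA counts by symbol, as the Kcn, Scn, Cacna1, Cacna2d, Cacnb, Cacng and Hcn genes, which gave 128 of 18782 annotated genes. By family these were 10 sodium channel pore subunits, 4 sodium channel beta subunits, 10 calcium channel pore subunits, 15 calcium channel auxiliary subunits, 37 voltage-gated potassium channel pore subunits, 14 potassium channel auxiliary subunits, 7 calcium- or sodium-activated potassium channels, 15 inward rectifiers, 12 leak channels of the Kcnk family and 4 HCN channels. The choice went by symbol and used no measured value, but it was made with earlier results of these data known.

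mRNA was sequenced from extracellular vesicles (EVs) of the ipsilateral hemisphere and of the plasma of 21 rats, in 7 groups of 3 rats. All were adult male wild-type Sprague-Dawley rats. The healthy group had no stroke surgery. Rats of the other groups underwent transient occlusion of the middle cerebral artery, a model of ischemic stroke with reperfusion, and 3 days later received saline (control) or human neural stem cells (hNSCs) into the common carotid artery, and were taken 4, 10, or 31 days poststroke. Since the healthy rats had no operation, stroke cannot be told apart from surgery in any comparison with them. The hemisphere was not divided into infarct and spared tissue. In bulk EV samples, fewer vesicles from a cell type and less of an mRNA per vesicle cannot be told apart.

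As background, voltage-gated sodium channels open on depolarization and produce the upstroke of the action potential, and voltage-gated potassium channels repolarize the membrane. Calcium channels turn the same depolarization into calcium entry, which triggers transmitter release and gene expression, and their auxiliary subunits set how many pores reach the membrane. Inward rectifiers and leak channels hold the resting potential in neurons, glia, vessels and blood cells, and HCN channels pass a pacemaker current. In the brain most of these genes are expressed by neurons, whereas Kcnj10 serves potassium buffering in astrocytes and Kcna3 and Kcnn4 are the classical potassium channels of lymphocytes and microglia.

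The sequences shown here are promoters of members on which the results turn, from the RefSeq promoter table of build GRCr8, each running from 250 bases before to 50 bases after a gene start and written 5′ to 3′. Capitals mark GGGCGG or its reverse CCGCCC, the GC box. Scn8a (chr7:133860977-133861276, plus strand) and Cacna2d3 (chr16:4918850-4919149, minus strand) stand for channels found mainly in brain-derived EVs, and Kcnab2 (chr5:168270711-168271010, minus strand) and Kcnab1 (chr2:151614301-151614600, plus strand) for those found widely in EVs of both sources.
Scn8a: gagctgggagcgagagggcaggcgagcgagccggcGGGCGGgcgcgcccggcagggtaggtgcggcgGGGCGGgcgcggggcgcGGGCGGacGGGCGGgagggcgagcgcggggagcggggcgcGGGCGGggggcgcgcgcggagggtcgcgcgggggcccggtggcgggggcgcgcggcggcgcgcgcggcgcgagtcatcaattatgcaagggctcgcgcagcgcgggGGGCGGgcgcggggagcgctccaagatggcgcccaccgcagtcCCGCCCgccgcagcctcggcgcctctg
Cacna2d3: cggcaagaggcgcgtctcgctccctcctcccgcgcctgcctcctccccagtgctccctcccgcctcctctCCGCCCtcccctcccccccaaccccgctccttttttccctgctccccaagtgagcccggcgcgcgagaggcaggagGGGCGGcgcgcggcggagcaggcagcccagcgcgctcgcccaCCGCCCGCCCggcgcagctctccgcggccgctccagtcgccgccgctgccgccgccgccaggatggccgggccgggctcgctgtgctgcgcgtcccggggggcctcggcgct
Kcnab2: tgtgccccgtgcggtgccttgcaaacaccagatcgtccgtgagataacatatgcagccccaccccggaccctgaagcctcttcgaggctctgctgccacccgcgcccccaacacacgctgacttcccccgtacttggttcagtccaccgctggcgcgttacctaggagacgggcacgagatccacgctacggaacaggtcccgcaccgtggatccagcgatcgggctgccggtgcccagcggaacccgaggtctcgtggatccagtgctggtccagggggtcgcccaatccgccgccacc
Kcnab1: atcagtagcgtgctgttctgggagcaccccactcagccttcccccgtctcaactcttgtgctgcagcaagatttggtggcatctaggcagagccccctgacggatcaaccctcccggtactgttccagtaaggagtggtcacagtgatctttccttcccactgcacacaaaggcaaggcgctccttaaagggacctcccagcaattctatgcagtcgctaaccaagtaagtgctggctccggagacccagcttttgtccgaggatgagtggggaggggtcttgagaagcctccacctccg

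The Scn8a window held 7 GC boxes and 60 CpG dinucleotides, and the Cacna2d3 window 4 and 42. The Kcnab2 and Kcnab1 windows held 0, with 28 and 9 CpG dinucleotides. The table held 94 promoters of 85 members, of which 50 (53.2%) contained a GC box, against 33.1% of all 33469 promoters of that length. TATAAA or TTTATA was in 4 member promoters (4.26%, against 14.2% of all), and AGATAA or TTATCT, letters bound by GATA factors, in 8 (8.51%, against 11.6%). The median CpG count was 15 in member promoters and 7 in all promoters. These matches describe letters, and binding was not measured.

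The deposited values are counts of reads per gene without unique molecular identifiers and FPKM values, which are scaled for transcript length and for the number of mapped fragments. Libraries of brain-derived EVs held 13221461 to 37651652 counts, of which 3.18% to 51.9% lay on annotated genes and the rest on unannotated transcripts, while plasma libraries held 11878367 to 49824782 counts with 45.1% to 75.6% on annotated genes. The annotated share of brain libraries differed between groups, from 29.9% to 51.9% at 31 days and from 7.11% to 20.9% in healthy rats. The third hNSCs library at 10 days stood apart, with 569136 annotated counts. In plasma, genes were seen with many reads or with none: the median count of a detected gene was 180 to 872 and 0.927% to 4.07% of detected genes had fewer than 10 counts, against 3.8% to 11.5% in brain. The labelled tissues carried their markers, and summed CPM (annotated counts scaled to a common library size with TMM factors) over 11 neuron genes was 2110 to 11100 in brain and 0 to 39.6 in plasma libraries, with Gad2 at 0 in all of plasma.

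Channel mRNAs made up 0.404% to 1.27% of annotated counts in brain-derived EVs and 0.0171% to 0.0982% in plasma-derived EVs, so that no plasma library reached the lowest brain library. Between 64 and 122 of the 128 genes were detected in a brain library, and 10 to 67 in a plasma library. In brain, 59 genes were found in all 21 libraries and 5 in none, namely Kcne3, Kcnj1, Kcnk18, Scn10a and Scn11a. The last 2 of these encode sodium channels of sensory neurons, and Kcnj1 is best known from the kidney. In plasma, Kcnab2 was found in all 21 libraries, 25 genes were found in none and 54 in only 1 to 3 libraries.

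**Figure D1:**
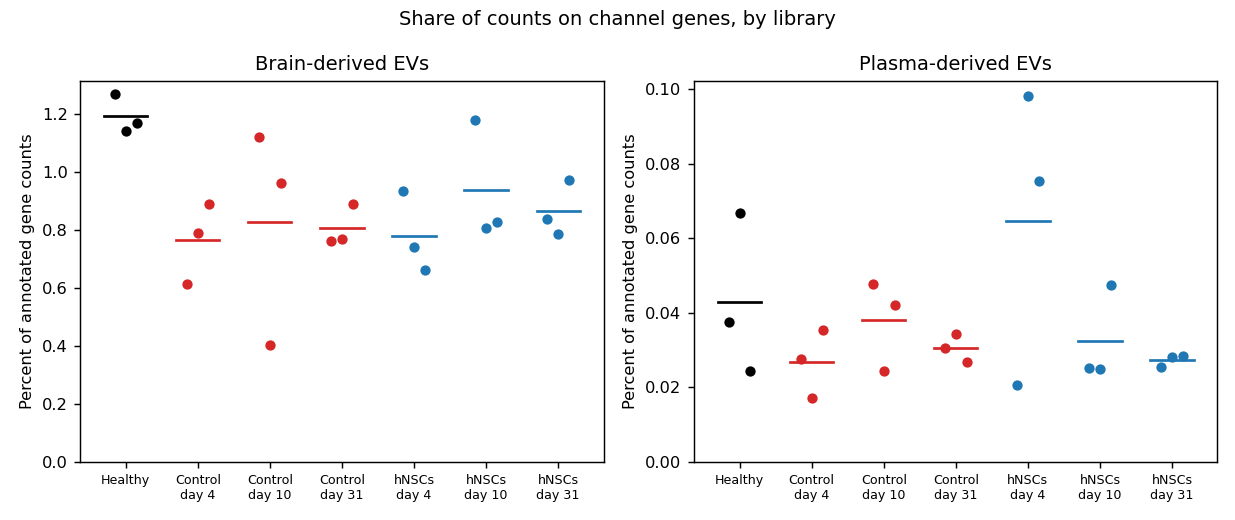
Percent of annotated gene counts on the 128 channel genes (vertical axes, with separate scales for brain- and plasma-derived EVs) in the 3 libraries of each of 7 groups. Points are libraries and bars are group means. The healthy brain libraries sit between 1.14% and 1.27%, and every plasma library is below 0.1%.

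On the FPKM scale, which allows genes to be compared, Scn8a, the main sodium channel of the axon initial segment and nodes, had 3.46 ± 2.07 FPKM (SD, n = 21) in brain-derived EVs, and the beta subunit Scn2b had 3.42 ± 3.73. Scn2a, the early axonal channel, had 1.55 ± 1.45, and Scn1a, the channel of fast-spiking interneurons that is mutated in Dravet syndrome, 0.865 ± 0.776. The SDs were as large as the gaps between neighbouring genes, so the order of these levels is not separated beyond the spread.

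Calcium channel mRNAs were led by auxiliary beta subunits, which carry the pore to the membrane. Cacnb1 had 3.46 ± 2.67 FPKM and Cacnb3 2.81 ± 2.26 (SD, n = 21). Cacng8, a transmembrane AMPA receptor regulatory protein that is grouped with calcium channels by its name, had 2.52 ± 1.38. Among the pores, Cacna1e of the R-type current had 2.61 ± 2.13 and Cacna1a of the P/Q-type current, which drives transmitter release, 2.45 ± 1.38. All 8 calcium channel pore subunits that were tested in brain were present in all 21 libraries.

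Among potassium channels, the auxiliary subunit Kcnab2, a cytoplasmic partner of Shaker-type channels, was highest at 5.15 ± 4.70 FPKM (SD, n = 21). The pore gene Kcnc1, a fast channel of high-frequency firing, had 1.83 ± 0.896. The inward rectifier Kcnj9, a G-protein-gated channel, had 1.94 ± 1.08, and the pacemaker gene Hcn2 1.86 ± 1.35. Kcnma1, the large-conductance calcium-activated channel, had 1.56 ± 1.10, and the sodium-activated Kcnt1 1.28 ± 0.966. No leak channel reached a mean of 1 FPKM, and Kcnk4 led them at 0.746 ± 0.663. In all, 34 of the 128 genes had a mean above 1 FPKM in brain and 5 did in plasma.

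Plasma-derived EVs carried a different selection. Kcnab1, a second Shaker beta subunit, had 7.63 ± 9.40 FPKM and Kcnab2 4.42 ± 3.48 (SD, n = 21), followed by Kcnn4 with 2.46 ± 2.63, Cacnb3 with 1.61 ± 1.81 and Kcns3, a silent subunit that modifies other potassium channels, with 1.504 ± 1.62. Potassium channel auxiliary subunits took 51.2% of the summed mean FPKM of all members in plasma and 11% in brain, whereas sodium channel pore subunits took 0.693% and 6.84%. Kcne3, a small auxiliary subunit of potassium channels in epithelia, was in 16 plasma libraries and in no brain library. Levels varied widely between plasma libraries, with Kcnab1 ranging from 0 to 41.4 FPKM.

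Brain- and plasma-derived EVs of the same rats were compared with edgeR, with the rat as a block. Of 85 members tested, 81 were higher in brain and 1, Kcnn4, was lower, at an adjusted p under 0.05 and more than 1.5-fold. Of all 13470 genes tested, 32.4% were called higher in brain and 25.7% lower. The remaining 3 members were Kcna3, Kcnab1 and Kcns3. Of the 128 members, 59 were in all 21 brain libraries, and 1 was in all 21 plasma libraries. Many of the 85 thus passed the filter on low counts through their brain counts, which favors calls higher in brain. Without the filter, 107 of 128 members (83.6%) were called either way, against 51% of all genes. Mean CPM was higher in brain for 107 of the 128 members and higher in plasma for 21. In the 6 healthy libraries alone, 45 of 94 members tested were called, all higher in brain, where 9.13% of all genes were called higher and 7.91% lower. On log2(FPKM + 1) with limma, 48 of 96 members were higher and 4 lower, and 7.82% and 49.7% of all genes. By family, all tested members were called higher in brain among sodium channel pore subunits (5), sodium channel beta subunits (4), calcium channel pore subunits (8), calcium channel auxiliary subunits (11), inward rectifiers (9), leak channels (8) and HCN channels (3), as were 22 of 24 voltage-gated potassium channel pore subunits. The median fitted log2 difference was 10.39 over the members and 0.26 over all genes, a value that depends on the treatment of zero counts in plasma. Over the tested members with any plasma count, the median ratio of mean CPM was 57.4, and 11 of the 85 had none.

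Scn8a showed the clearest separation. It was in all 21 brain libraries, at 0.556 to 8.73 FPKM with a median of 3.19, and in 1 plasma library, with 2 counts. The fitted difference was 14.80 on the log2 scale (SE 0.36, edgeR adjusted p = 1.09e-20). Both the difference and its SE depend on the treatment of zero counts in plasma. The SE was derived from the test statistic and does not give the counting error of 2 reads. Bounds against a floor of 3 counts summed over the 21 plasma libraries were drawn for genes without any plasma count. Kcnt1 was at least 17700-fold higher in brain, Kcnj9 at least 9900-fold, and Kcnh3, a channel of forebrain neurons, at least 9320-fold. The astrocyte inward rectifier Kcnj10, also at 0 throughout plasma, was at least 2490-fold higher. These bounds cover counting error only and hold for reads scaled to annotated counts. Detected genes in plasma libraries had median counts of 180 to 872. A transcript in plasma could thus be missed or give many reads, and the bounds are not lower limits on transcript numbers.

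Kcnab2 was higher in brain in 20 of 21 rats, with a log2 difference of 1.87 (SE 0.31, edgeR adjusted p = 1.22e-05). The difference was 0.63 when library sizes were taken from all rows (adjusted p = 0.16) and 0.08 on log2(FPKM + 1) (adjusted p = 0.799), so its call depends on scaling. Cacnb3 was 6.04-fold higher in brain by the ratio of mean CPM and higher in 21 of 21 rats.

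Kcnn4, the intermediate-conductance calcium-activated channel of red cells, T cells and microglia, went the other way, with a log2 difference of −2.75 (SE 1.13, edgeR adjusted p = 0.039). Its mean was 0.158 ± 0.178 FPKM in brain and 2.46 ± 2.63 in plasma (SD, n = 21), and brain exceeded plasma in 3 of 21 rats. The call was lost without any 1 of the healthy rats (adjusted p = 0.0588 to 0.0622) and without the rats of 2 libraries that stood apart (adjusted p = 0.0653). Kcns3 differed by −2.69 (SE 1.27, adjusted p = 0.072) and was higher in brain in 3 rats. Kcnab1 differed by −0.59 (SE 0.58, adjusted p = 0.392), with brain higher in 9 rats and plasma in the others. Kcna3, the channel of T cells, differed by 1.80 (SE 1.05, adjusted p = 0.143), and its sign turned on the FPKM scale. Beside these genes, all 6 red cell and all 6 platelet markers were called lower in brain, and 3 of 5 T-cell markers (Cd3e, Cd3d and Cd2) were at 0 in every brain library. The part of blood cells in these levels was not tested.

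**Figure D2:**
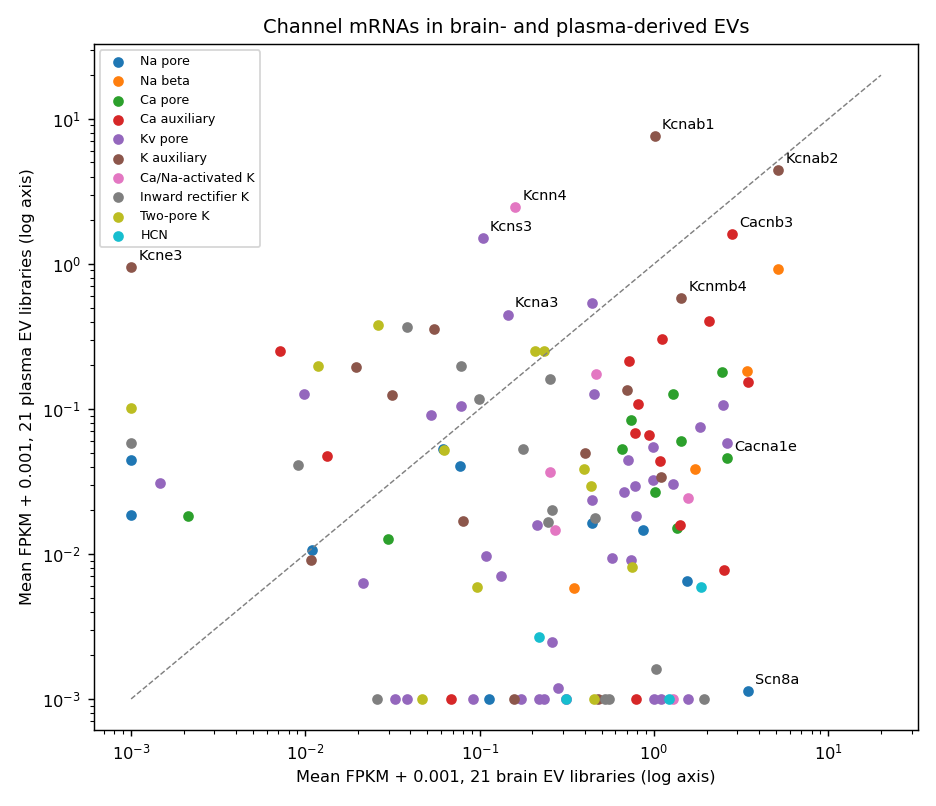
Mean FPKM + 0.001 of each of the 128 channel genes over 21 libraries of brain-derived EVs (horizontal) and of plasma-derived EVs (vertical), both on log axes, with genes colored by family and a dashed line at equal values. Most genes lie below the line, while Kcnab1 at 1.01 and 7.63 FPKM and Kcnn4 at 0.158 and 2.46 FPKM lie above it.

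To ask whether stroke altered channel mRNAs in brain-derived EVs, each control group was compared with the healthy group. Of 109 members that passed the filter on low counts, 0 were called at 4, 10, or 31 days by edgeR, against 0.861%, 0.572%, and 0.00689% of all 14515 genes. At an unadjusted p under 0.05, 19 members were lower and 5 higher at 4 days, where 6.31% and 8.52% of all genes were lower and higher. At 10 days 13 were lower and 1 higher (all genes 5.13% and 7.54%), and at 31 days 13 were lower and 5 higher (all genes 1.84% and 5.3%). DESeq2 called 9, 2 and 2 members in these comparisons (8.26%, 1.83% and 1.83% of the members), and 5.83%, 4.22% and 1.21% of all genes. Of the 9 at 4 days 7 were lower, where DESeq2 called 1.72% of all genes lower. The healthy libraries are shared by these 3 comparisons.

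The members as a whole lay below the genes tested. Their median log2 fold change was −0.59, −0.43 and −0.35 in time order, beside 0.05, 0.00 and 0.24 for all genes, and the medians of the members were the same with genes at 0 in a group set to their bounds. Fitted values were below 0 for 81, 83 and 80 of 109 members (74.3%, 76.1% and 73.4%), against 47.0%, 48.9% and 36.9% of all genes. The sign of these values depends on the scale. With library sizes taken from all rows, unannotated transcripts included, the median of all genes moved to 0.73 at 4 days and 1.68 at 31 days, and the median of the members minus that of all genes was −0.64 and −0.60. In the main fit on annotated genes that difference was −0.43 at 10 days, and it ranged from −0.97 without the first control library to −0.19 without the second. Values given here are therefore relative to annotated genes. At 31 days, each of Scn1a, Scn2a, Scn8a, Cacna1b, Cacna1e, Cacna1g, Cacna2d3, Cacng8, Kcnma1 and Kcnt1 lay below 0 on this scale and above 0 with library sizes from all rows or on the FPKM scales. At 4 days the sign of Scn8a, Cacna1b and Cacna1g turned in the same way, and that of Kcnma1 and Kcnt1 on the FPKM scales only.

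By family, all 8 tested calcium channel pore subunits lay below 0 in each comparison, with medians of −0.82, −0.75 and −0.98 at 4, 10, and 31 days, relative to annotated genes. At 31 days 7 of these 8 had an unadjusted p under 0.05, where 1.84% of all genes were lower at that threshold. Cacna1b, Cacna1e and Cacna1g, the pores followed on other scales, turned sign at 31 days with library sizes from all rows and on the FPKM scales. Sodium channel pore subunits had medians of −1.44, −1.01 and −0.75 over 8 tested genes, and sodium channel beta subunits −0.89, −0.85 and −0.26 over 4. Voltage-gated potassium channel pore subunits were nearer to all genes, with −0.40, −0.32 and −0.22 over 35, and inward rectifiers with −0.58, −0.12 and −0.07 over 11. Differences between families were not tested.

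**Figure D3:**
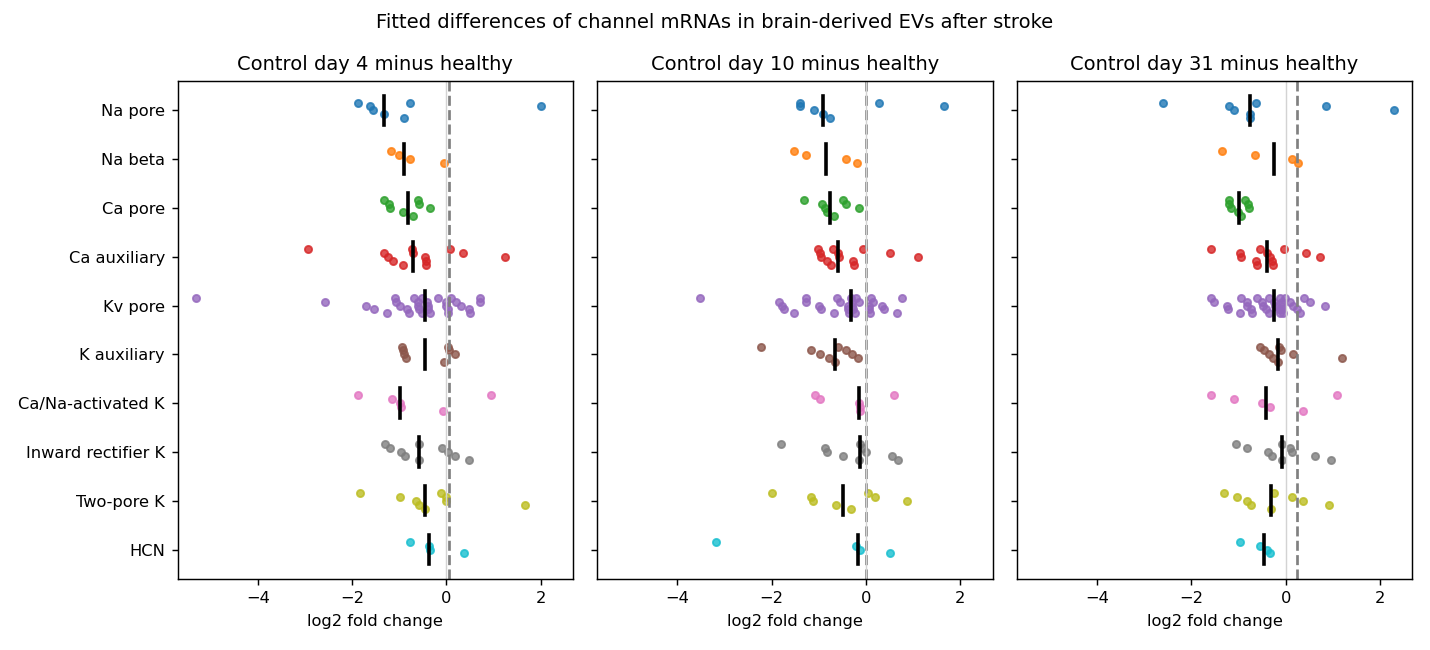
Fitted log2 fold changes (horizontal) of channel genes in brain-derived EVs, control (4, 10, and 31 days from left to right) minus healthy, with families in rows; genes at 0 in either group (8, 9 and 5) are not drawn. Points are genes, black bars are medians of the genes drawn, and the dashed line is the median of all 14515 genes (0.05, 0.00 and 0.24). Calcium channel pore subunits lie below 0 in all 3 panels on this scale, and the sign at 31 days turns for the named members with library sizes from all rows.

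Scn1a was the member with the smallest p value at 4 days. It had 275, 208, and 262 CPM in the healthy libraries and 113, 79.5, and 61.5 at 4 days in controls, followed by 178, 41.97, and 61.9 at 10 days and 149, 129, and 165 at 31 days. Relative to annotated genes, all 9 control libraries were below all 3 healthy ones, while the difference at 31 days turned sign on the other scales. The log2 fold change was −1.55 (SE 0.40, edgeR adjusted p = 0.0645) at 4 days and −1.40 (SE 0.40, adjusted p = 0.123) at 10 days, and with the replicate number as a block the value at 4 days passed (adjusted p = 0.0416). The first control library at 10 days, at 178 CPM, was the control nearest to the healthy values. Leaving it out widens the difference by construction (edgeR adjusted p = 0.00254), so that fit adds no support. Over the 6 fits with a library left out, the log2 fold change at 10 days ranged from −2.25 to −1.04.

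Scn2a had 357, 401, and 469.9 CPM in healthy rats and 104, 205, and 179 at 4 days. At 10 days it had 333, 74.6, and 165 CPM, and at 31 days 264, 245, and 291. Relative to annotated genes the groups did not overlap, while the difference at 31 days turned sign on the other scales. The log2 fold change at 4 days was −1.33 (SE 0.41, edgeR adjusted p = 0.12). Scn8a had 787, 621, and 853 CPM in healthy rats and 289, 398, and 365 at 31 days, a log2 fold change of −1.10 (SE 0.40, adjusted p = 0.537) that turned sign on the other scales. At 10 days its range of 167 to 633 CPM reached into the healthy range.

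Cacna2d3, an auxiliary subunit that promotes surface delivery of calcium channels, had 392, 202, and 370 CPM in healthy rats. It had 102, 149, and 157 CPM at 4 days and 93.7, 128, and 102 at 31 days, all below the healthy libraries, while the first library at 10 days (235 CPM) overlapped them. The log2 fold change was −1.24 (SE 0.38, adjusted p = 0.119) at 4 days and −1.57 (SE 0.38, adjusted p = 0.277) at 31 days, the latter with a sign that turned on the other scales. Cacna1e had 1268, 850, and 1375 CPM in healthy rats, 382, 595, and 557 at 4 days, and 565, 687, and 669 at 31 days. Its log2 fold change at 4 days was −1.19 (SE 0.37, edgeR adjusted p = 0.119), and its difference at 31 days turned sign on the other scales.

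Other calcium channel pores had their lowest p values at 31 days, with signs that turned on the other scales. Cacna1b of the N-type current had a log2 fold change of −1.19 (SE 0.33, adjusted p = 0.398) and Cacna1g of the T-type current −1.15 (SE 0.35, adjusted p = 0.483). Among activated potassium channels, Kcnma1 had 270.2, 225, and 347 CPM in healthy rats and 129, 166, and 134 at 4 days without overlap (−0.97, SE 0.38, adjusted p = 0.223). Kcnt1 at 31 days had 97.8, 131, and 119.9 CPM against 469.9, 196, and 373 in healthy rats (−1.57, SE 0.53, edgeR adjusted p = 0.488). The sign of Kcnma1 at 4 days turned on the FPKM scales, and that of Kcnt1 at 31 days on all the other scales.

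Averaged over the 3 control groups, which was done after the values were seen, 0 members were called against healthy rats (0.186% of all genes). At an unadjusted p under 0.05, 21 members were lower and 2 higher, where 5.24% and 7.05% of all genes were. The lowest adjusted p values from edgeR were 0.0583 for Cacna2d3 (−1.27, SE 0.29) and 0.0675 for Scn1a (−1.23, SE 0.30).

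A few members lay higher after stroke. Kcnn4 was at 0 in the 3 healthy brain libraries and had 22.8, 11.9, and 17.8 CPM at 4 days, 0, 21.9, and 39.2 at 10 days, and 2.53, 10.7, and 3.47 at 31 days. Against a floor of 3 counts over the healthy group it was at least 58.2-fold, 55.8-fold and 15.1-fold higher, with an edgeR adjusted p of 0.107 at 4 days. Kcnj5, a G-protein-gated inward rectifier, was also at 0 in healthy rats and at least 29.4-fold higher at 4 days, from 129 counts in 2 libraries. Detected genes in the healthy brain libraries had median counts of 55, 110, and 93, so a transcript at a low level may give no reads. Kcnn4 was also at 0 in the first control library at 10 days. The bounds are on reads and do not allow for transcripts missed in this way. Cacng8 had 46.7, 69.1, and 38.5 CPM in healthy rats and 105, 109, and 152 at 4 days (1.24, SE 0.52, adjusted p = 0.245), and 27.1, 36.0, and 37.7 at 31 days. Kcnj10 stayed within its spread, with log2 fold changes of 0.19, 0.67 and −0.07 and SEs of 0.82 each.

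**Figure D4:**
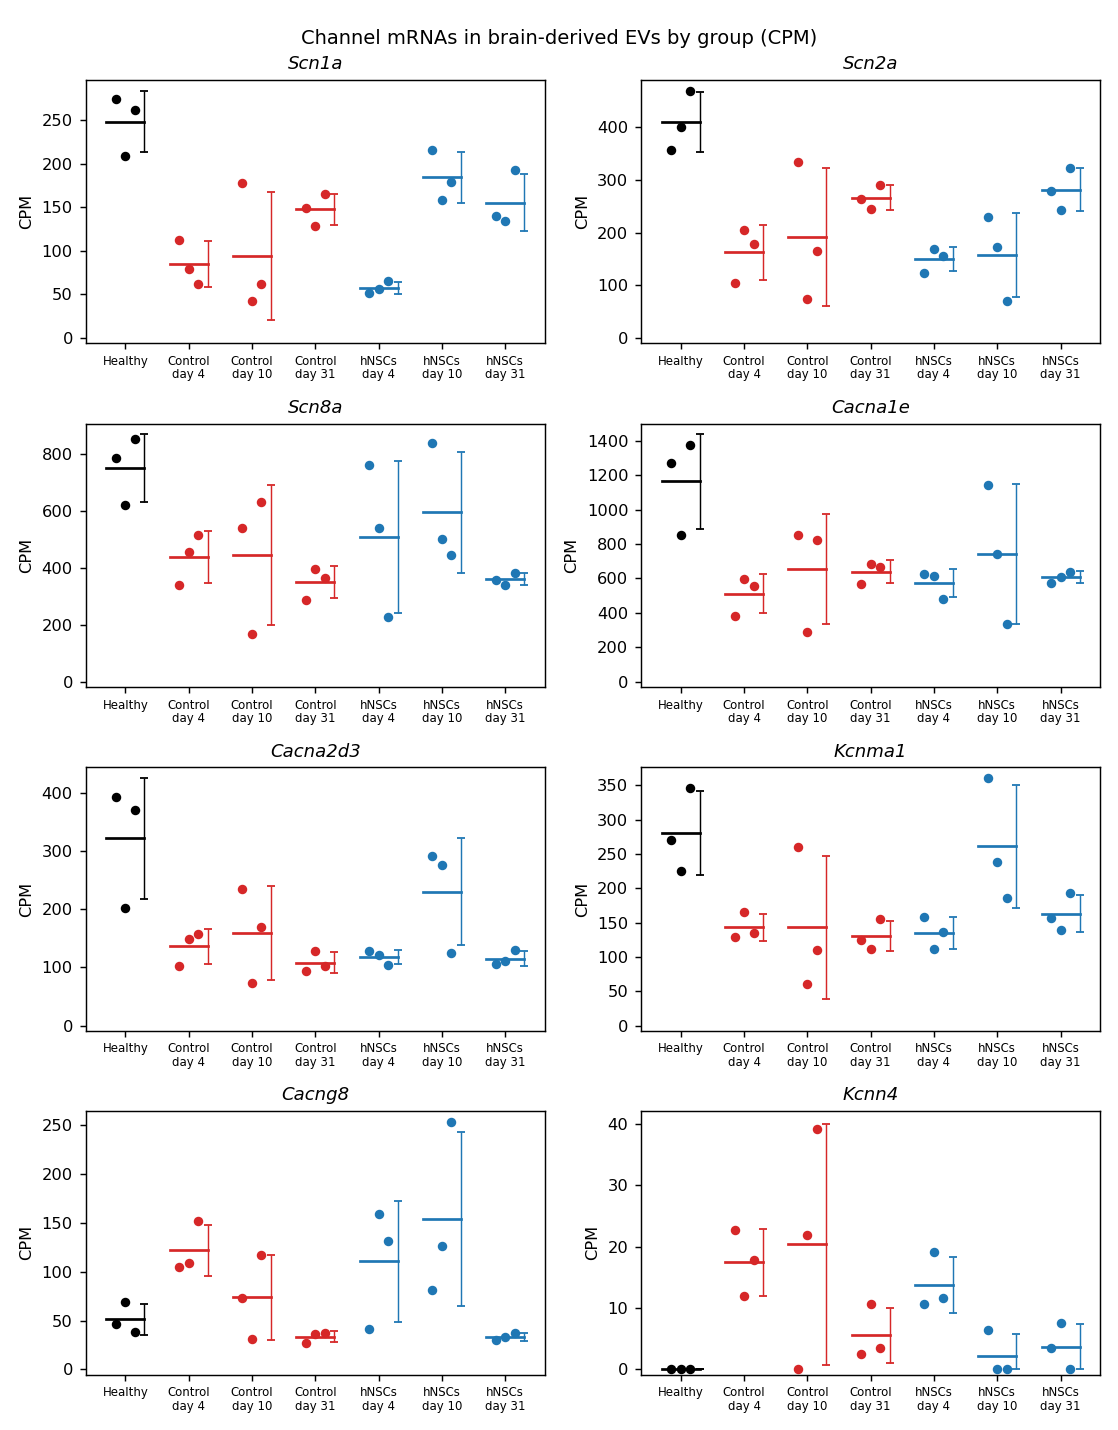
CPM of 8 channel genes in brain-derived EVs, 3 libraries per group. Points are libraries, horizontal bars are means and whiskers are 1 SD, cut at 0. On this scale all 9 control libraries of Scn1a lie below the 3 healthy ones, and Kcnn4 is at 0 in the healthy libraries.

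Genes that anchor or assist channels were read from a list of 30 partners that are not members, such as Ank3, which anchors sodium channels at the axon initial segment, Dpp6, a partner of Kcnd channels, and Cntnap2, which gathers potassium channels beside nodes. Of these, 27, 26 and 27 lay below 0 at 4, 10, and 31 days, with medians of −0.71, −0.60 and −0.47, and 0 were called. The 11 neuron markers had medians of −0.83, −1.09 and −0.10, with 11, 11 and 7 below 0 and 1 called lower at 4 days. Their summed CPM was 8410 to 9700 in healthy rats, 3460 to 6270 at 4 days, 2110 to 7290 at 10 days, and 6880 to 9240 in controls of day 31. The 10 microglia and macrophage markers summed to 64.7 to 96.8 CPM in healthy rats and to 618 to 1440, 242 to 2380 and 248 to 476 at the 3 times. The 7 tested potassium channels listed as glial, vascular or immune had medians of 0.48, 0.04 and 0.09. The part of cell composition in the channel values was not tested.

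From 4 to 31 days in controls, 0 members were called in brain (0.248% of all genes), and 8 had an unadjusted p under 0.05 (9.5% of all genes). The median of the members was 0.19, beside 0.11 for all genes. DESeq2 called 1 member, Cacng8, lower at 31 days, and 1.68% of all genes.

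To ask whether hNSCs changed these mRNAs, the hNSCs and control groups were compared at each time. In brain-derived EVs 0 members were called at 4, 10, or 31 days, and 0% of all genes were. At an unadjusted p under 0.05 there were 5, 9 and 0 members, where 7.53%, 13.4% and 0.0896% of all genes passed. The medians of the members were 0.00, −0.02 and 0.08, beside −0.12, −0.34 and 0.00 for all genes. DESeq2 called 1 member at 4 days (Scn7a), 2 at 10 days, Kcnd2 among them, and 0 at 31 days, and 1.52%, 4.38% and 0% of all genes. Scn7a had no counts in the hNSCs group at 4 days and 98 counts in 1 control library.

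Kcnd2, the A-type channel of dendrites, gave the smallest p value at 10 days. It had 60.7, 58.6, and 118 CPM with hNSCs and 35.4, 10.7, and 33.3 in controls, without overlap (1.57, SE 0.54, edgeR adjusted p = 0.319). Scn1a had 216, 158, and 179 CPM with hNSCs and 178, 41.97, and 61.9 in controls at 10 days, which overlap (0.97, SE 0.40, adjusted p = 0.329). Kcnma1 had 360.1, 238, and 185 CPM with hNSCs, against 259.5, 60.2, and 109.8 in controls (0.87, SE 0.39, adjusted p = 0.344). Kcna2, a Shaker channel of axons, pointed the other way, with 197, 47.0, and 66.3 CPM against 263, 101, and 299.99 in controls (−1.07, SE 0.46, adjusted p = 0.338). The groups overlapped for both Kcnma1 and Kcna2. The second control library at 10 days was low for Scn1a, Kcnd2 and Kcnma1 alike, and the share of its counts on channel genes was 0.404%, the lowest of all brain libraries. The hNSCs group at 10 days includes the library with 569136 annotated counts. Without the first control library at 10 days, the control highest in Scn1a, 1 member was called, Scn1a. Without the first hNSCs library 5 were, all lower (Kcnt2, Kcna2, Kcnk2, Kcnk1 and Kcnh2). The hNSCs libraries left in that fit had 1123445 and 569136 annotated counts, the fewest of all brain libraries. Kcnt2, Kcnk2, Kcnk1 and Kcnh2 were at 0 in both. The share of all genes called in these fits was not computed, so these counts cannot be read as particular to channel genes.

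At 31 days the hNSCs and control groups lay close together for the genes named here. Scn1a had 139.5, 134, and 192 CPM with hNSCs and 149, 129, and 165 in controls, and Scn8a had 359.5, 342, and 382 against 289, 398, and 365. The effect of hNSCs at 31 days minus that at 4 days called 0 members (0% of all genes), with 2 at an unadjusted p under 0.05 (4.23% of all genes) and 1 by DESeq2, Scn7a (0.73% of all genes).

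In plasma-derived EVs 57 members passed the filter, and edgeR called 0 in each of the 8 comparisons. Against healthy rats, 0.0679%, 0% and 0% of all 14720 genes were called at 4, 10, and 31 days, and for hNSCs against controls 0.00679%, 0% and 0%. Between 31 and 4 days in controls 0.17% were called, and for the difference in the hNSCs effect 0.00679%. Members with an unadjusted p under 0.05 numbered 4, 1 and 1 against healthy rats (all genes 5.86%, 5.6% and 4.75%) and 6, 1 and 1 for hNSCs against controls (3.94%, 4.06% and 8.57%). There were 3 between 31 and 4 days (4.56%) and 12 for the difference in effect (9.96%). DESeq2 called 7, 6 and 5 members against healthy rats (all genes 6.16%, 8.25% and 4.48%), 14, 5 and 7 for hNSCs (5.93%, 7.76% and 11.3%), 7 between times (6.45%) and 12 for the difference in effect (11.9%). As shares of the 57 members these are 12.3%, 10.5% and 8.77%, then 24.6%, 8.77% and 12.3%, then 12.3% and 21.1%. The medians of the members were −0.38, −0.10 and −0.35 against healthy rats, beside −0.12, −0.22 and −0.09 for all genes. Their difference from all genes was −0.25 at 4 days and turned sign with a library left out, from −2.87 without the third control library to 0.13 without the first, and at 31 days it was −0.26 and ranged from −0.27 without the second control library to 0.08 without the third. For hNSCs against controls they were 1.80, 1.69 and 0.00, beside 0.00, 0.21 and −0.10, and 1.75 and 1.13 for the first pair with members at 0 in a group set to their bounds. These medians rest on few genes with counts on both sides, since 33, 24 and 34 of 57 members had a group at 0, and the differences from all genes moved widely when a library was left out. At 4 days they ranged from 0 without the second hNSCs library to 5.70 without the third control library, and at 10 days from −0.01 without the third hNSCs library to 6.61 without the first control library.

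The plasma genes that were measured in most libraries varied widely within groups. Kcnab1 had 52.4, 446, and 31.1 CPM in healthy rats and 61.7, 86.4, and 527 CPM with hNSCs at 4 days, against 32.1, 13.96, and 69.0 in controls (2.55, SE 1.45, edgeR adjusted p = 0.814). Kcnab2 was steadier in healthy rats, with 119.9, 88.0, and 108 CPM, against 36.6, 99.5, and 42.8 in controls at 4 days (−0.82, SE 0.77, adjusted p = 1). In controls at 31 days it spread more widely, with 11.2, 31.0, and 143 CPM. Kcnn4 had 3.89, 20.3, and 11.1 CPM in healthy rats and 28.7, 35.4, and 74.5 in controls at 10 days, which do not overlap (1.97, SE 1.59, adjusted p = 0.979). It was at 0 in the second control library at 4 days and in the first at 31 days.

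Many plasma members were present in 1 or 2 libraries of a group at high counts and absent from the rest. Cacna1a was at 0 in all 3 control libraries at 4 days and at 10 days, and had 10.3, 2.70, and 9.21 CPM in healthy rats and 18.8, 11.9, and 0 in controls at 31 days. Its unadjusted p was 0.0105 at 4 days and its adjusted p 0.74. Kcnd3, a cardiac and neuronal A-type channel, was at 0 in 10 of 21 libraries and between 1.51 and 61.6 CPM in the others. The number of members detected was highest in the hNSCs libraries of the third rat at 10 days (67) and the second at 4 days (52), and 15269 and 12289 annotated genes were detected in these. The former is the most of all plasma libraries. Summed neuron markers in plasma were 2.89 to 39.6 CPM with hNSCs and 0 to 3.99 CPM in controls at 4 days. The part of detection in the plasma values was not tested.

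**Figure D5:**
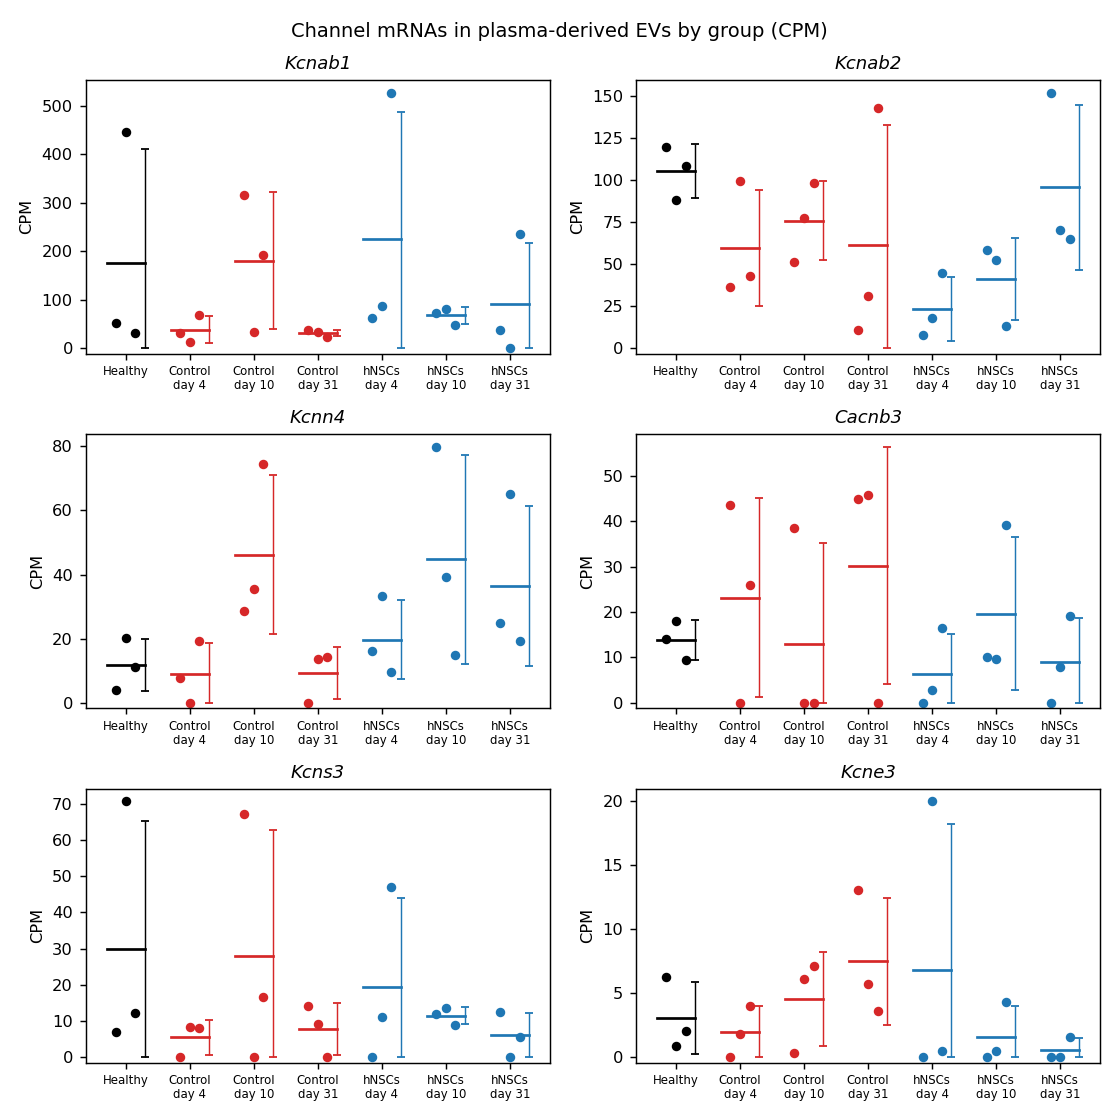
CPM of 6 channel genes in plasma-derived EVs, 3 libraries per group. Points are libraries, horizontal bars are means and whiskers are 1 SD, cut at 0. Kcnab1 reaches 446 and 527 CPM in single libraries of groups whose other libraries are below 100 CPM.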

How the data were processed

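mRNA libraries of brain- and plasma-derived EVs from 21 rats were used, 42 in all, with groups and rats taken from the labels. One extraction label speaks of serum, and plasma is used here as in the other labels. Reads were cleaned of adapters and poor bases by the authors, mapped to Rnor 6.0 by Bowtie2 and passed to StringTie. The deposited counts are whole reads per gene, not normalized and without molecular identifiers, and the deposited FPKM values are the authors' own. The strand setting and the counting tool are not given in the sources used here, so reads of overlapping or antisense genes cannot be told apart. miRNA tables were not used, and 0 columns belonged to other samples.

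Annotated genes entered edgeR 4.0.16 under R 4.3.3 (TMM, filterByExpr, quasi-likelihood F tests), in 1 model of 7 groups per tissue, and with the rat as a block between tissues. A call needed an adjusted p (Benjamini-Hochberg, over all genes tested) under 0.05 and a change of more than 1.5-fold. SEs were derived as the absolute log2 fold change divided by the square root of the F statistic. For genes with few or no counts on a side they do not measure precision. The labels name biological replicates, with 3 rats in each group. Within a tissue, edgeR p values rest on the spread between rats of a group, pooled over the 7 groups of the model. They do not rest on the rats of the compared groups alone. For brain against plasma, they rest on the spread of the within-rat difference over all rats. Bounds used a floor of 3 counts over a group. They are on reads and do not allow for transcripts missed in a library. Same-numbered libraries deviated together, with every correlation above 0.1, in 1 of 14 comparisons (hNSCs against control at 31 days in brain, 0.25, 0.28 and 0.33). The replicate block changed no call there. Alternatives were DESeq2 1.42.0, no filter, limma 3.58.1 on log2(FPKM + 1) and log2(FPKM + 0.1) for genes with a mean FPKM of at least 0.1, library sizes from all rows, the replicate block, and each library left out. The tests were run on simulated counts with planted changes and the same spread for every gene. These counts did not have the all-or-none detection seen in plasma, so the check does not bear on genes detected in that way.

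Genes were named when called, when among the 2 highest by FPKM of a family and tissue, or when on a list of classical neuronal, glial, vascular and immune channels. Kcne3, Kcnj1, Kcnj5, Kcnk18, Kcnh2, Kcnt2, Scn7a, Scn10a and Scn11a were named after their values were seen. Some members are not reported here by name. Members and lists were chosen with earlier results of these data known.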

Additional observations from a re-analysis of the deposited data

Results flagged for a closer look

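The difference of Scn1a between hNSCs and control libraries in brain-derived EVs was set apart because it pointed in opposite directions at 2 times. Only Kcnd2, Scn1a, Kcnma1 and Kcna2, the members described at 10 days above, were screened for this. The share of all genes with such a pattern was not computed. The hNSCs and control libraries overlapped at both times. At 4 days the hNSCs libraries had 52.0, 55.8, and 65.1 CPM and the controls 113, 79.5, and 61.5, and every hNSCs library lay below the control mean. At 10 days the hNSCs libraries had 216, 158, and 179 CPM and the controls 178, 41.97, and 61.9, and every hNSCs library lay above the control mean. The effect at 10 days minus that at 4 days was 1.53 on the log2 scale (SE 0.56, edgeR unadjusted p = 0.0118, adjusted p = 0.385). Of 14515 genes 0 were called in this difference by edgeR, and 6 channel genes had an unadjusted p under 0.05, as did 8.63% of all genes. DESeq2 was not run on it. The contrast was added after the values were seen, and the gene was picked on the same values, so its p value is not separate support.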

How the results depend on the processing

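Of 485 values of single genes under other settings, 405 kept their direction and side of the threshold, 9 lost their call, 26 gained one and 45 turned sign. DESeq2 called 9, 2 and 2 members against healthy rats at 4, 10, and 31 days in brain, 1 and 2 for hNSCs at 4 and 10 days, 1 between 31 and 4 days, and 1 for the difference in effect. In plasma DESeq2 called 7, 6 and 5 against healthy rats, 14, 5 and 7 for hNSCs, 7 between times and 12 for the difference in effect. With limma, log2(FPKM + 1) gave 1 member at 4 days, 48 at 31 days (all higher), 32 between 31 and 4 days and 52 between brain and plasma, which are 1.09%, 52.2%, 34.8% and 54.2% of the members beside 3.86%, 66.1%, 33.5% and 57.6% of all genes. On log2(FPKM + 0.1) there were 1, 53 and 14 for the first 3 of these, 1.09%, 57.6% and 15.2% beside 4.76%, 85.8% and 15.2%. The replicate block gave 1 member at 4 days in brain, Scn1a, and changed no other count of calls there by over 1.5 times. Since the replicate numbers do not pair rats of different groups by the labels, it is given as an alternative only. Leaving out 1 library gave 0 to 4 members at 10 days against healthy rats, 0 to 5 for hNSCs at 10 days and 0 in the other comparisons within a tissue. Between brain and plasma, only the 3 healthy rats were left out singly, which gave 80 to 82. Shares of all genes called were not computed for fits with a library or rat left out, so these counts have no background. The 6 healthy libraries gave 45 between brain and plasma.

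Signs turned with scaling. On log2(FPKM + 1) the values at 4 days were 0.16 for Scn8a, 0.18 for Cacna1b, 0.23 for Cacna1g, 0.018 for Kcnma1 and 0.024 for Kcnt1, and at 31 days 0.71 for Scn1a, 0.94 for Scn2a, 0.78 for Scn8a, 0.42 for Cacna2d3, 0.92 for Cacna1e, 0.62 for Cacna1b, 0.57 for Cacna1g, 0.61 for Kcnma1, 0.48 for Kcnt1 and 0.87 for Cacng8. On log2(FPKM + 0.1) they were 0.23 for Scn8a, 0.32 for Cacna1b, 0.39 for Cacna1g, 0.064 for Kcnma1 and 0.020 for Kcnt1 at 4 days, and at 31 days 1.24 for Scn1a, 1.40 for Scn2a, 0.97 for Scn8a, 0.56 for Cacna2d3, 1.22 for Cacna1e, 0.95 for Cacna1b, 0.92 for Cacna1g, 0.95 for Kcnma1, 0.75 for Kcnt1 and 1.41 for Cacng8. With library sizes from all rows they were 0.036 for Scn8a, 0.19 for Cacna1b and 0.31 for Cacna1g at 4 days, and at 31 days 0.80 for Scn1a, 0.85 for Scn2a, 0.45 for Scn8a, 0.10 for Cacna2d3, 0.73 for Cacna1e, 0.48 for Cacna1b, 0.50 for Cacna1g, 0.42 for Kcnma1, 0.14 for Kcnt1 and 0.75 for Cacng8. Kcna3 between brain and plasma was −0.21 and −0.45 on the FPKM scales. The cause was not tested.

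Groups had 3 rats, and brain libraries 569136 to 15587216 annotated counts. Several named members with log2 changes near 1 against healthy rats carried SEs of 0.33 to 0.53. Kcnd2 and Kcnj10 had larger SEs, and those of members with fewer counts are not given here. In plasma 24 to 34 of 57 members were at 0 in a group, and their changes are bounds only.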
